A study of Mus musculus with 8 samples.

Results

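The genes described here are 34 molecular chaperones, folding enzymes and regulators of the heat shock response, the unfolded protein response of the endoplasmic reticulum (ER) and the linked integrated stress response. They were chosen by gene symbol, and 1 transcript row was kept per symbol, the row with the highest mean count over 8 libraries. All 34 symbols were found among the 22869 symbols of the deposited count table, and all 34 passed the filter on low counts, as did 16069 genes in all. RNA from the brain, labelled cortex, of APP/PS1 mice on the C57BL/6 strain was sequenced as stranded mRNA libraries. APP/PS1 mice carry transgenes for the amyloid precursor protein and presenilin and form amyloid plaques; both groups carry them, and there is no group without them. Mice of the first group received bexarotene, an agonist of retinoid X receptors (4 libraries), and mice of the vehicle group received glycerol at 0.2 mg/kg (4 libraries). The labels give no dose or duration of bexarotene, no age and no sex, and do not state how many animals went into a library. Each p-value thus rests on the spread among libraries, which may be technical in part. That spread also holds differences in sex-linked transcripts, given below.

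Cells answer misfolded protein in separate compartments. In the cytosol, heat shock factor 1 drives the Hsp70, Hsp90, Hsp110 and J-domain chaperone genes through heat shock elements. In the ER, the sensors Atf6, Ire1 and Perk respond to unfolded protein: cleaved Atf6 and spliced Xbp1 act on ER chaperone and degradation genes, and Perk phosphorylates eIF2α, which favours translation of Atf4; Atf4 in turn activates transcription of Ddit3 (CHOP), Trib3 and Asns. Induction of Hspa5 (BiP) is the usual readout of ER stress, and both arms have been studied in the brain in connection with amyloid. Counts per transcript measure RNA and tell neither the splicing of Xbp1 nor the translation of Atf4.

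Column totals ranged from 42413825 to 76542067, and levels are given below in CPM, relative to each library's total over the tested rows times its TMM factor. On the first principal component of the libraries, which held 36.5% of the variance, replicates 1 and 3 of bexarotene and vehicle alike were set against replicates 2 and 4. Xist had 180, 84.7, 116 and 218 CPM in the bexarotene libraries, against 248, 0.861, 307 and 0.62 CPM in the vehicle libraries, and the Y-linked Ddx3y had 7.52, 40.7, 23.4 and 4.43 CPM in the bexarotene libraries, against 0.212, 63.3, 0.126 and 71.5 CPM in the vehicle libraries. Each bexarotene library thus held both transcripts, while vehicle 1 and 3 were near 0 for Ddx3y and vehicle 2 and 4 near 0 for Xist. Among the vehicle libraries this split is the same as that on the first principal component. Group differences given below within replicates 1 and 3, or within replicates 2 and 4, cannot be told apart from it. Neuronal markers were abundant in every library (summed CPM of 7 genes from 4121 to 5665 with bexarotene and from 4891 to 5607 with vehicle). Markers of striatal projection neurons, which a cortical sample should hold little of, summed to 1066, 225, 779 and 221 CPM in the bexarotene libraries, against 528, 176, 276 and 258 CPM in the vehicle libraries (8 genes, none at 0 throughout). Of 8 markers of the choroid plexus, which lines the ventricles, 8 had a positive fold change (median 1.52 on the log2 scale). They summed to 88.9, 1464, 75.5 and 227 CPM in the bexarotene libraries, against 15.9, 41.6, 26.0 and 40.2 CPM in the vehicle libraries, so bexarotene 2 stood apart. EdgeR called 0 of them and DESeq2 called Ttr and Clic6. In bulk tissue, fewer cells of a type and less RNA per cell cannot be told apart.

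The heat shock and unfolded protein response genes did not separate the bexarotene libraries from the vehicle libraries. With edgeR's quasi-likelihood test on all 21285 rows, 0 of the 34 genes passed an adjusted p of 0.05, and the smallest adjusted p was 0.531. That count has to be read against the background, since 1 gene of 16069 (0.00622%) passed in the whole comparison. At an unadjusted p under 0.05, 1 of the 34 was higher with bexarotene and 0 were lower, where 4.88% of all genes were higher and 3.89% lower. DESeq2 called 0 of the 34, while it called 0.781% of the genes it adjusted, and it gave no adjusted p for Atf3 and Trib3. With the replicate number as a block, 0 of the 34 were called and 0.00622% of all genes. In 0 of the 34 did the 4 bexarotene values lie wholly above or wholly below the 4 vehicle values, against 3.61% of all genes wholly above and 2.16% wholly below.

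Log2 fold changes of the 34 genes, bexarotene minus vehicle, ran from -0.21 to 0.75. Their median was 0.08, beside 0.0009 over all genes tested, and 25 of 34 were positive (73.5%), beside 50.2% of all genes. The median was smaller without bexarotene 1 (0.04), without vehicle 2 (0.03) and without vehicle 3 (0.05), and larger without vehicle 1 (0.14). Within replicates 1 and 3 the median log2 difference of the 34 genes was 0.0012, beside 0.0259 over all genes. Within replicates 2 and 4 it was 0.1032, beside 0.0055 over all genes. Between these 2 sets of libraries 15 of the 34 had opposite signs, and 14 were positive in both. The intervals rest on the spread among libraries, with group as the only term. They do not account for the differences in sex-linked and marker transcripts described above. The 95% interval lay within 1.5-fold in either direction for 28 of the 34, against 58.6% of all genes, and within 2-fold for 32 of the 34, against 77.9% of all genes. These shares of all genes are not matched for expression level. The genes with intervals wider than 1.5-fold were Hspa1b, Hspb1, Sdf2l1, Creld2, Atf3 and Trib3, 6 of the less abundant genes of the set. For Hspb1 and Trib3 the interval also passed 2-fold.

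**Figure D1:**
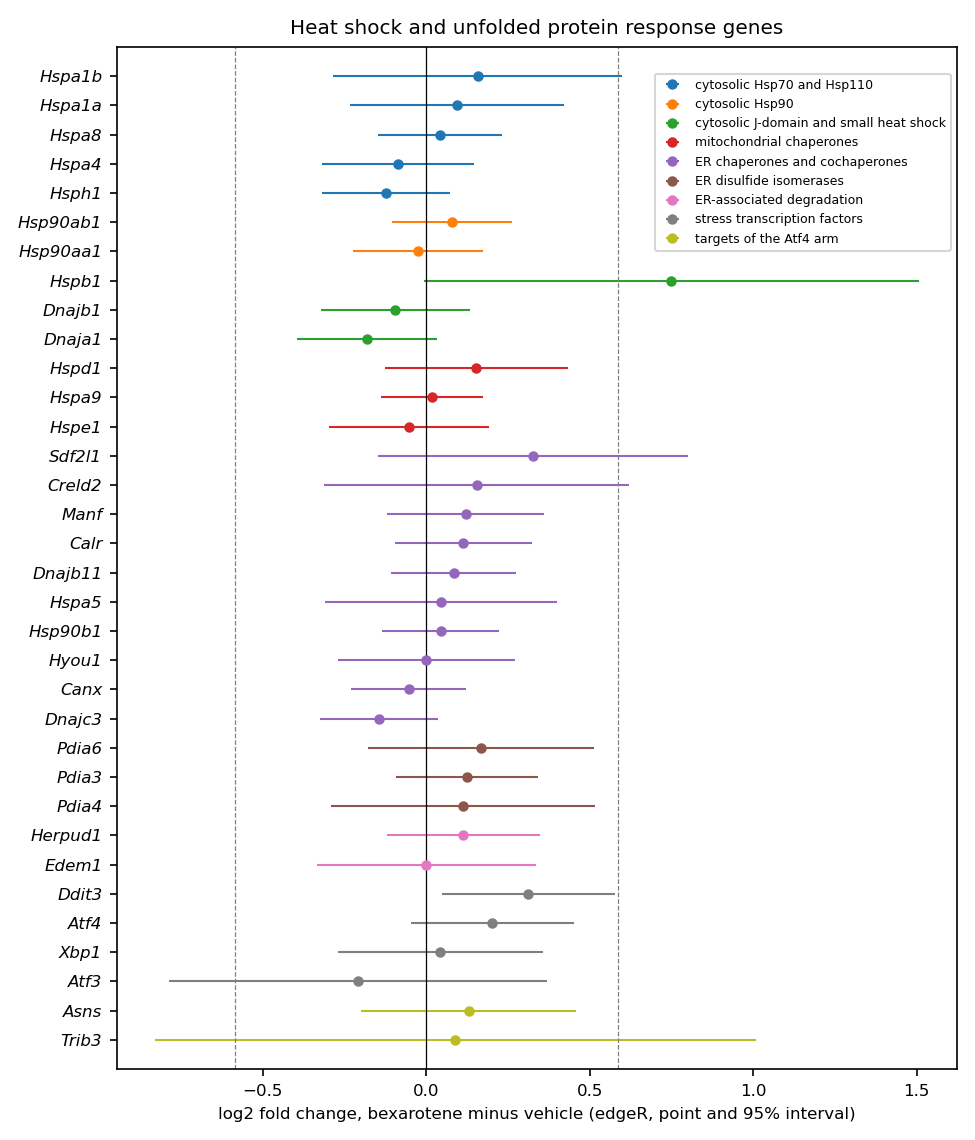
Log2 fold change (bexarotene minus vehicle, horizontal axis) of the 34 genes, coloured by role, as edgeR's estimate (point) with its 95% interval (line); dashed lines mark 1.5-fold in either direction. The interval of Ddit3 alone lies clear of 0, without adjustment for the number of genes tested, and 28 intervals lie inside the dashed lines.

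Levels spanned about 3 orders of magnitude once corrected for transcript length. Hsp90ab1, the constitutive cytosolic Hsp90, was the most abundant at 461 CPM per kilobase with bexarotene and 437 with vehicle, followed by the ER lectin chaperone Calr (calreticulin) at 131 with bexarotene and 121 with vehicle. Hspa8, the constitutive Hsp70, had 94.8 CPM per kilobase with bexarotene and 92.0 with vehicle. Next came the ER chaperones Hsp90b1 (87.2 with bexarotene, 84.5 with vehicle) and Hspa5 (78.3 with bexarotene, 75.9 with vehicle). Some stress-inducible genes stood at the other end, while others such as Hspa5, Atf4 and Dnajb1 did not. Hspa1a had 2.47 CPM per kilobase with bexarotene and 2.32 with vehicle, Atf3 0.696 with bexarotene and 0.805 with vehicle, and Trib3 0.412 with bexarotene and 0.387 with vehicle. Hsp90aa1, the more inducible Hsp90, had 50.8 with bexarotene and 51.7 with vehicle, so in the Hsp70 and Hsp90 families the constitutive gene exceeded the inducible one in both groups.

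**Figure D2:**
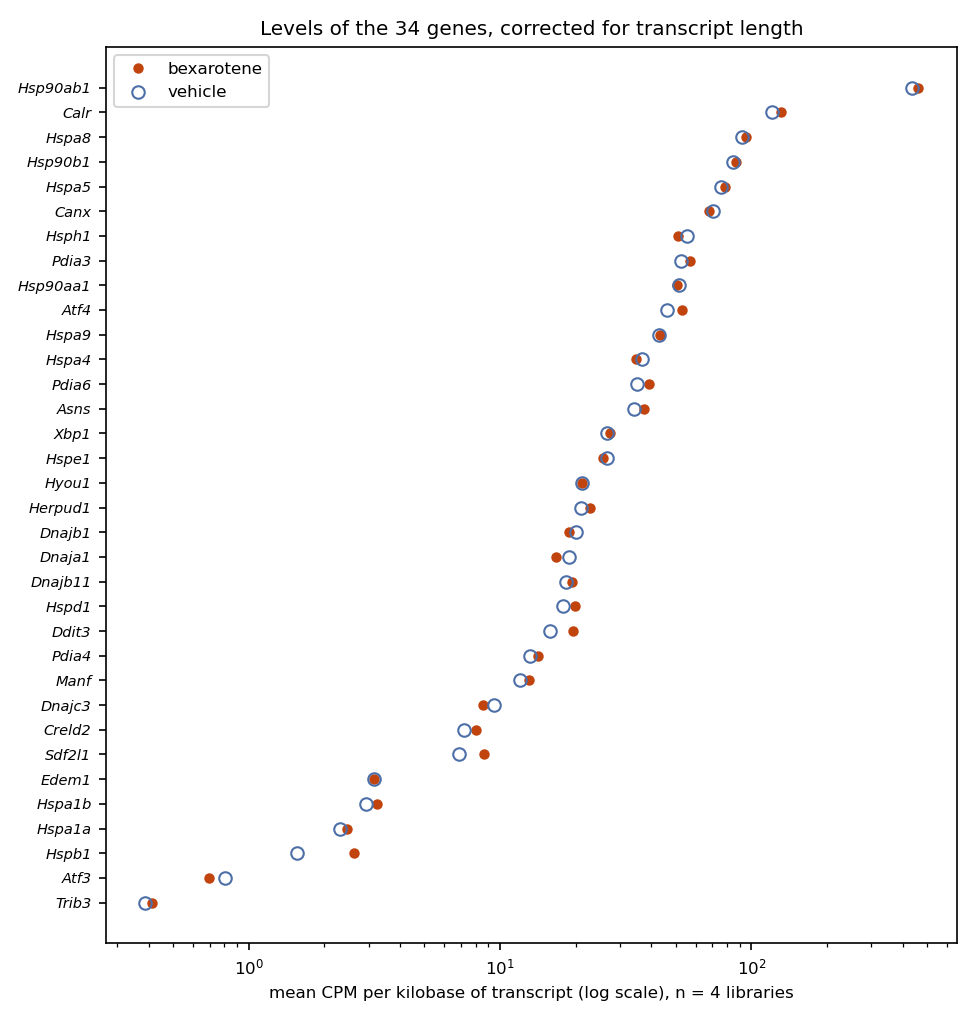
Mean CPM per kilobase of transcript (horizontal axis, log scale) of the 34 genes in bexarotene (filled points) and vehicle (open circles) libraries, n = 4 each. The 2 groups' points lie close together for most genes, from Hsp90ab1 (461 with bexarotene, 437 with vehicle) down to Trib3 (0.412 with bexarotene, 0.387 with vehicle). They lie farthest apart for Hspb1 (2.62 with bexarotene, 1.56 with vehicle).

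Among the stress transcription factors, Ddit3, the proapoptotic factor CHOP that lies downstream of Atf4, had the smallest p of the 34 genes. It had 20.2, 15.1, 17.3 and 17.0 CPM in bexarotene libraries 1 to 4, against 13.3, 16.2, 12.9 and 13.6 CPM in vehicle libraries 1 to 4. Bexarotene 2 lay below vehicle 2, and otherwise every bexarotene value exceeded every vehicle value. Ddit3 averaged 17.4 ± 2.11 CPM with bexarotene and 14.0 ± 1.51 CPM with vehicle (SD, n = 4 each), and edgeR's log2 fold change was 0.31 ± 0.12 (SE; 95% interval 0.05 to 0.58; unadjusted p = 0.0254, adjusted p = 0.531). The exact two-sided permutation p was 0.0571, where the smallest that 4 against 4 can give is 0.0286. Correcting each library for transcript length and GC content brought the log2 fold change to 0.14 (edgeR adjusted p = 0.946). The difference within the cluster of replicates 1 and 3 was 0.51 and within replicates 2 and 4 it was 0.11; the test of the difference between the clusters gave an edgeR unadjusted p of 0.0738. Exons of Ddit3 and of Mars overlap on opposite strands by 68 bases, and the strand setting of the counting is not given; Mars itself had a log2 fold change of 0.13 (edgeR adjusted p = 0.84).

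Atf4, the factor whose translation rises when eIF2α is phosphorylated, had 87.2, 100.2, 80.9 and 98.6 CPM in the bexarotene libraries, against 83.6, 84.8, 86.1 and 64.6 CPM in the vehicle libraries. Vehicle 4 was low, and bexarotene 3 lay below 3 of the 4 vehicle libraries. The log2 fold change was 0.20 ± 0.11 (SE), with an edgeR adjusted p of 0.664. It stood at -0.01 in replicates 1 and 3 and at 0.42 in replicates 2 and 4 (edgeR interaction, unadjusted p = 0.0339, adjusted p = 0.328). Xbp1, the factor activated by Ire1 splicing, had 66.2, 54.2, 60.6 and 52.8 CPM with bexarotene, against 73.6, 56.8, 48.6 and 48.1 CPM with vehicle. Vehicle 1 was the highest library and vehicle 4 the lowest, so the vehicle group spanned the bexarotene group, and the log2 fold change was 0.04 ± 0.14 (SE; edgeR adjusted p = 0.965). Atf3, a stress-induced repressor, was low, with 1.19 to 1.64 CPM in bexarotene libraries and 1.27 to 2.02 CPM in vehicle libraries (log2 fold change -0.21 ± 0.26, SE).

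Of the genes downstream of Atf4, Asns makes asparagine and is a classical amino acid response gene. It had 66.4, 80.9, 70.5 and 82.2 CPM in the bexarotene libraries, against 76.5, 52.9, 85.0 and 59.9 CPM in the vehicle libraries. The vehicle libraries split by replicate number, with 1 and 3 above 2 and 4, and the bexarotene libraries split the other way. For the vehicle libraries this is also the split by Xist and Ddx3y. Replicates 1 and 3 alone gave a log2 difference of -0.24, and replicates 2 and 4 alone one of 0.54. The edgeR interaction test of that difference gave an unadjusted p of 0.000268 and an adjusted p of 0.112. Over all 34 genes, 4 passed an unadjusted interaction p of 0.05 (Asns, Hspa4, Hspd1 and Atf4), where 13.3% of all genes did, and 0 of the 34 passed an adjusted p of 0.05, as did 0% of all genes. Trib3, a pseudokinase induced by Ddit3, ranged from 0.672 to 1.02 CPM with bexarotene and from 0.534 to 1.34 CPM with vehicle.

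The promoters carried letters known from these pathways. RefSeq windows of 250 bases before to 50 bases after the start (GRCm38.p6) were matched for 28 of the 34 genes; Hspa8, Hspa9, Hsp90aa1, Hsp90ab1, Hyou1 and Manf had none. The amino acid response element, searched as TGATGNAA on both strands, was in the windows of Asns, Atf3, Herpud1 and Trib3, 4 of the 28 genes, and in those of 4.51% of all 27025 genes with a window. The stretch of Asns with its element is shown because Asns had the smallest interaction p. It spans the 100 bases before the start at GRCm38.p6 chr6:7693210-7693309, minus strand, with the element in capitals.
Asns: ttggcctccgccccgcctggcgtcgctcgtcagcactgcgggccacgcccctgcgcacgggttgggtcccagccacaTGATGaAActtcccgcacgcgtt

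**Figure D3:**
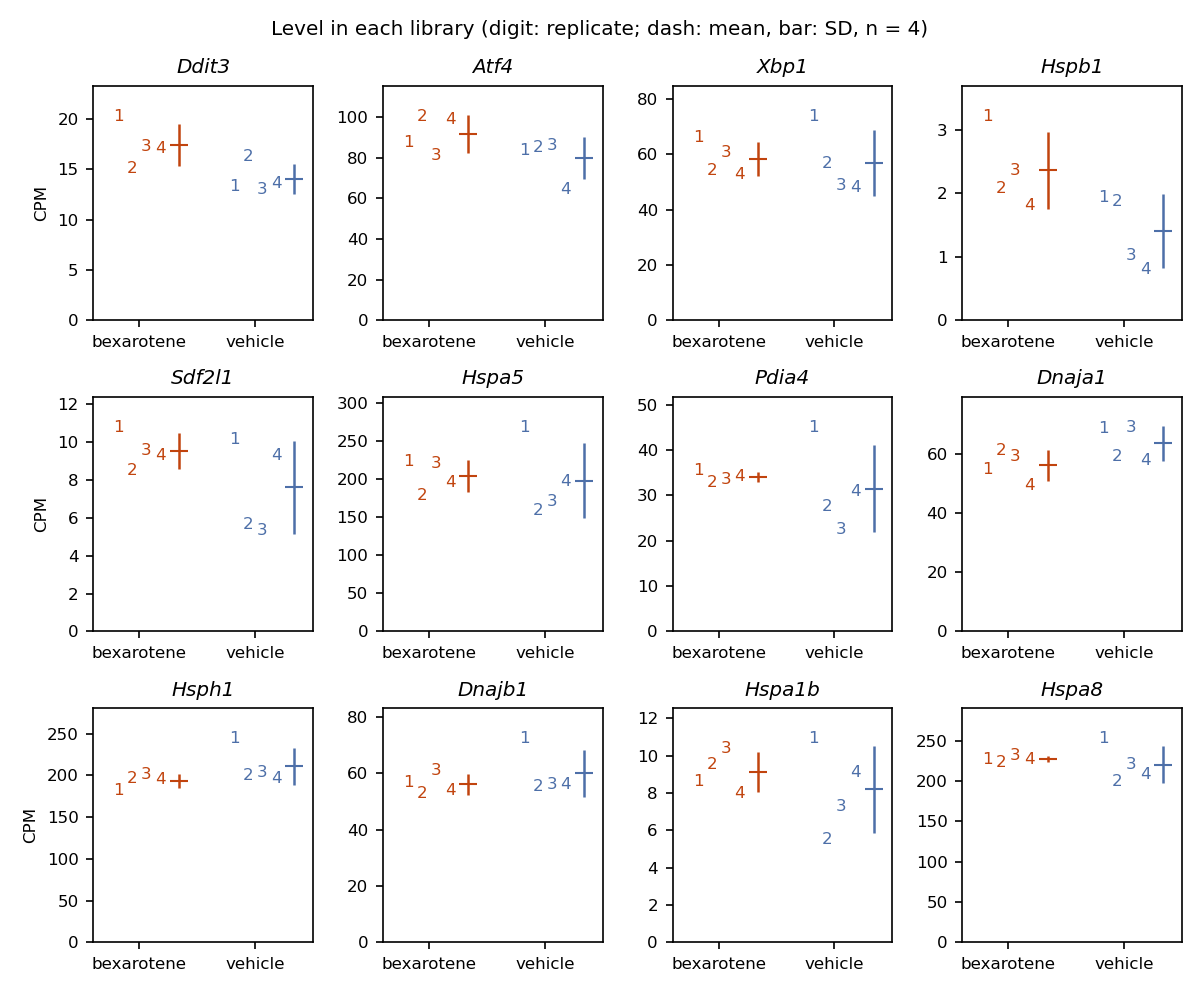
CPM (vertical axis, from 0) of 12 of the 34 genes in each library, printed as its replicate number, with mean and SD beside it (n = 4 per group), bexarotene left and vehicle right. The groups overlap in every panel; vehicle 1 is the highest vehicle library for Hspa5 (268 CPM), Hsph1 (244 CPM) and Dnajb1 (72.3 CPM).

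In the ER, 0 of 10 chaperones and cochaperones and 0 of 3 disulfide isomerases passed the test, and their median log2 fold changes were 0.06 and 0.12. Hspa5, the master Hsp70 chaperone of the ER, had 224, 179, 220 and 196 CPM in bexarotene libraries 1 to 4, against 268, 158, 170 and 197 CPM in vehicle libraries 1 to 4. Vehicle 1 was the highest and vehicle 2 the lowest of the 8, and the bexarotene values lay between them. Hspa5 averaged 204.6 ± 21.3 CPM with bexarotene and 198.3 ± 49.1 CPM with vehicle (SD, n = 4 each), a fitted fold of 1.03 with a 95% interval from 0.807 to 1.32 (edgeR adjusted p = 0.969). Without vehicle 2 or vehicle 3 the sign turned, with log2 fold changes of -0.04 and -0.02, and without vehicle 1 it was 0.22.

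Dnajc3 (p58IPK), an Hspa5 cochaperone and inhibitor of Perk, ran the other way with 44.1, 45.1, 44.0 and 42.3 CPM in the bexarotene libraries, against 53.7, 46.4, 43.6 and 50.3 CPM in the vehicle libraries. Vehicle 3 was within the bexarotene range and the other vehicle libraries were above it (log2 fold change -0.145 ± 0.0813, SE; edgeR adjusted p = 0.671). After the correction for length and GC content the Dnajc3 log2 fold change was -0.003. Sdf2l1, part of the ER chaperone complex, had 10.8, 8.52, 9.56 and 9.27 CPM with bexarotene, against 10.1, 5.67, 5.34 and 9.31 CPM with vehicle. Vehicle 2 and 3 were low, while vehicle 1 and 4 lay among the bexarotene values, and the log2 fold change of 0.33 ± 0.21 (SE) had an edgeR adjusted p of 0.726. Calr had 309.9, 252, 307 and 274 CPM with bexarotene, against 286, 239, 256 and 275 CPM with vehicle. Replicates 1 and 3 were the higher ones with bexarotene, and the groups overlapped (log2 fold change 0.11 ± 0.09, SE; edgeR adjusted p = 0.788). Pdia3 (ERp57), the disulfide isomerase that works with Calr and Canx, had 159.6, 158.6, 164 and 148 CPM with bexarotene, against 160.5, 119.6, 147 and 152 CPM with vehicle. Vehicle 2 was the lowest of the 8, and the log2 fold change was 0.12 ± 0.10 (SE; edgeR adjusted p = 0.782).

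The other ER genes were closer to 0 or varied more. Canx (calnexin), Hsp90b1 (GRP94), Hyou1 (an ER Hsp110) and Dnajb11 (an Hspa5 cochaperone) had log2 fold changes of -0.05, 0.04, 0.0005 and 0.08. The secreted ER stress proteins Manf and Creld2 had 0.12 and 0.15, and the isomerases Pdia4 and Pdia6 had 0.11 and 0.17. In ER-associated degradation, Herpud1, a scaffold of the retrotranslocation complex, had 0.11, and Edem1, which directs misfolded glycoproteins to degradation, had 0.0005. Pdia4 had 35.5, 32.9, 33.5 and 34.1 CPM with bexarotene, against 44.96, 27.5, 22.5 and 30.9 CPM with vehicle. Its coefficient of variation was 3.3% with bexarotene and 30.6% with vehicle. Manf went the other way, at 13.8% with bexarotene and 4.83% with vehicle. The SD of log2 CPM was smaller with bexarotene for 27 of the 34 genes.

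The ER stress response element, to which Atf6 and NF-Y bind, is a promoter sequence that the choice of genes by symbol did not use. Searched as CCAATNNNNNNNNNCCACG on both strands, it was in the windows of 7 of the 28 genes and in those of 37 of 27025 genes (0.137%). The element was itself defined from ER chaperone promoters, so its presence here is a description. The sites are shown in the orientation that starts with CCAAT, with the fixed letters in capitals; the letters between are free. Hspa5 lies at chr2:34772025-34772043 (plus strand), Hsp90b1 at chr10:86705638-86705656 (minus) and chr10:86705533-86705551 (plus), Calr at chr8:84847075-84847093 (plus), Canx at chr11:50325800-50325818 (minus), Dnajc3 at chr14:118937827-118937845 (plus), Creld2 at chr15:88819520-88819538 (minus) and Pdia6 at chr12:17266491-17266509 (plus), all in GRCm38.p6.
Hspa5: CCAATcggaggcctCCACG
Hsp90b1, site at base 212 before the start: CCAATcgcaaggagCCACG
Hsp90b1, site at base 107 before the start: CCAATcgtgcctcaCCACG
Calr: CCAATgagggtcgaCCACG
Canx: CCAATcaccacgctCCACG
Dnajc3: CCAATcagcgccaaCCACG
Creld2: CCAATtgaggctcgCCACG
Pdia6: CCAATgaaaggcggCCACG
The site of Hspa5 in its setting, the 150 bases before the start at GRCm38.p6 chr2:34771940-34772089, plus strand and with the element in capitals, is shown because Hspa5 is the usual readout of the response.
Hspa5: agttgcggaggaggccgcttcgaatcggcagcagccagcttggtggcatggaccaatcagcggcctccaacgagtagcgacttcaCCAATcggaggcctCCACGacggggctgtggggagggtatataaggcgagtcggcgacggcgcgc

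Of the 7 genes with the element, 5 had a positive log2 fold change, from -0.145 in Dnajc3 to 0.17 in Pdia6, with a median of 0.05. Of the 21 genes with a window and no exact match, 15 had a positive one, with a median of 0.09. The unfolded protein response element TGACGTGG was in the windows of 0 of the 28 genes and of 0.714% of all genes, and the CCAAT box, which overlaps the ER stress response element, was in 22 of the 28 and in 41.1% of all genes.

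In the cytosol, the inducible Hsp70 genes Hspa1a and Hspa1b were low and similar between groups. Hspa1a had 7.31, 6.48, 6.76 and 8.77 CPM in bexarotene libraries 1 to 4, against 8.18, 6.74, 6.08 and 6.499 CPM in vehicle libraries 1 to 4, and the log2 fold change was 0.09 ± 0.15 (SE; edgeR adjusted p = 0.912). Hspa1b had 8.59, 9.54, 10.4 and 7.99 CPM with bexarotene, against 10.9, 5.495, 7.30 and 9.08 CPM with vehicle, and the log2 fold change was 0.16 ± 0.20 (SE; edgeR adjusted p = 0.884). In both genes the highest and the lowest vehicle library enclosed most of the bexarotene values. The pair is nearly a duplicate, with 1716 shared words of 50 bases, which are 58.8% of those of Hspa1a and 62.3% of those of Hspa1b, and promoters identical at 247 of 250 positions, so how reads were split between them is uncertain. Hspa1a also overlaps Gm20481 on the opposite strand by 564 bases.

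Hspa8 had 227, 223, 232 and 226 CPM with bexarotene, against 253, 199.6, 220.5 and 208 CPM with vehicle, so the bexarotene libraries lay inside the vehicle range (coefficient of variation 1.64% with bexarotene and 10.5% with vehicle). Its log2 fold change was 0.04 ± 0.09 (SE; edgeR adjusted p = 0.933). Hsp90aa1 had 158.0, 179, 171 and 158.3 CPM with bexarotene, against 171, 156, 192 and 158.4 CPM with vehicle. The groups covered nearly the same range, and the log2 fold change was -0.03 ± 0.09 (SE; edgeR adjusted p = 0.969). Hsp90ab1 averaged 1162 ± 23.5 CPM with bexarotene and 1100 ± 103.9 CPM with vehicle (SD, n = 4 each).

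The Hsp110 nucleotide exchange factors Hsph1 and Hspa4 were both highest in vehicle 1. Hsph1 had 182, 196, 201 and 194.5 CPM with bexarotene, against 244, 200.1, 203 and 196.5 CPM with vehicle. Apart from vehicle 1 the libraries were nearly level, and the log2 fold change was -0.12 ± 0.09 (SE; edgeR adjusted p = 0.748). Hspa4 differed between the library clusters, with a log2 difference of -0.31 within replicates 1 and 3 and 0.15 within replicates 2 and 4 (edgeR interaction, unadjusted p = 0.0047, adjusted p = 0.192).

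Of the J-domain proteins, which deliver clients to Hsp70, Dnaja1 had 54.9, 61.2, 59.4 and 49.3 CPM in the bexarotene libraries, against 68.6, 59.4, 69.0 and 58.0 CPM in the vehicle libraries. Vehicle 1 and 3 were above every bexarotene library and vehicle 2 and 4 were among them, and the log2 fold change of -0.18 ± 0.10 (SE) had an edgeR adjusted p of 0.642. It was -0.06 after the correction for length and GC content, and Dnaja1 overlaps Smu1 on the opposite strand by 608 bases. Dnajb1, the classical heat-inducible Hsp40, had 56.6, 53.0, 61.2 and 53.8 CPM with bexarotene, against 72.3, 55.5, 55.9 and 56.1 CPM with vehicle. Without vehicle 1 its log2 fold change was 0.01 in place of -0.09.

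Hspb1 (Hsp25/Hsp27), a small heat shock protein that holds unfolded clients and is found in glia and in vessel walls, had the largest fold change of the 34 genes at a low level. It had 3.21, 2.08, 2.37 and 1.80 CPM in the bexarotene libraries, from 201, 155, 162 and 135 counts, against 1.93, 1.88, 1.02 and 0.804 CPM in the vehicle libraries, from 82, 109, 57 and 48 counts. Bexarotene 4 lay below vehicle 1 and 2, and otherwise the bexarotene values were the higher ones. The log2 fold change was 0.75 ± 0.34 (SE; 95% interval -0.01 to 1.51; edgeR unadjusted p = 0.0518, adjusted p = 0.589), and the exact two-sided permutation p was 0.0857. Bexarotene exceeded vehicle in 4 of 4 same-numbered pairs, and with the replicate block the log2 fold change was 0.81 (edgeR unadjusted p = 0.0209, adjusted p = 0.417). These pairs rest on the replicate numbers in the titles alone, as the labels state no pairing. After the correction for length and GC content the Hspb1 log2 fold change was 0.56 (edgeR unadjusted p = 0.12, adjusted p = 0.908). Of 6 markers of mural cells of the vessel wall, 6 had a positive fold change and 0 passed the test, and their mean relative log2 level was 0.63, -0.19, 0.33 and -0.02 in the bexarotene libraries, against -0.02, 0.01, -0.46 and -0.27 in the vehicle libraries. Their summed level was 54.6 to 72.6 CPM with bexarotene and 46.6 to 60.6 CPM with vehicle, and none was at 0 throughout. Of 8 microglial markers, 8 had a positive fold change (median 0.33 on the log2 scale), 6 had an unadjusted p under 0.05, and in 4 the bexarotene values lay wholly above the vehicle values. They summed to 571, 509.8, 506.5 and 665 CPM in the bexarotene libraries, against 394, 417, 496 and 457 CPM in the vehicle libraries. EdgeR called 0 of the 8 after adjustment, and DESeq2 called C1qa (adjusted p = 0.00687). Of 8 endothelial markers, 8 had a positive fold change and edgeR called 0. Their mean relative log2 level was 0.30, -0.01, -0.01 and 0.15 in the bexarotene libraries, against -0.42, 0.19, -0.30 and 0.09 in the vehicle libraries. Of 8 astrocyte and 8 oligodendrocyte markers, 7 each had a positive fold change and edgeR called 0. The part of any of these cell types in the Hspb1 values was not tested.

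The mitochondrial chaperones form the folding chamber Hspd1 (Hsp60) with its lid Hspe1 (Hsp10), and the import motor Hspa9 (mortalin). Hspd1 had 49.9, 48.0, 50.4 and 44.3 CPM with bexarotene, against 50.6, 35.6, 49.96 and 37.1 CPM with vehicle. Vehicle 2 and 4 were below all other libraries, and the log2 fold change was 0.15 ± 0.13 (SE; edgeR adjusted p = 0.787), at -0.0038 within replicates 1 and 3 and 0.34 within replicates 2 and 4 (interaction, unadjusted p = 0.0208, adjusted p = 0.279). Its partner Hspe1 had a log2 difference of -0.20 within replicates 2 and 4 and -0.05 over all libraries. After the correction for length and GC content the Hspe1 log2 fold change was -0.23. Hspa9 had the narrowest interval of the 34, from -0.14 to 0.17 on the log2 scale.

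Hspd1 and Hspe1 are transcribed in opposite directions from a shared region, whose heat shock element is shown because both genes lie beside it. The element, searched as GAANNTTCNNGAA on both strands, was in the windows of 3 of the 28 genes (Hspd1, Hspe1 and Hsph1, in the last after the start) and in those of 0.662% of all genes. Only exact matches were counted, so a gene without a match may still carry a variant of the element. The 30 bases lie 95 to 66 bases before the start of Hspe1 at GRCm38.p6 chr1:55088053-55088082, plus strand, and the capitals mark the fixed letters of 2 overlapping matches, 1 on each strand.
Hspe1: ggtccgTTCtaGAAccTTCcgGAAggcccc

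**Figure D4:**
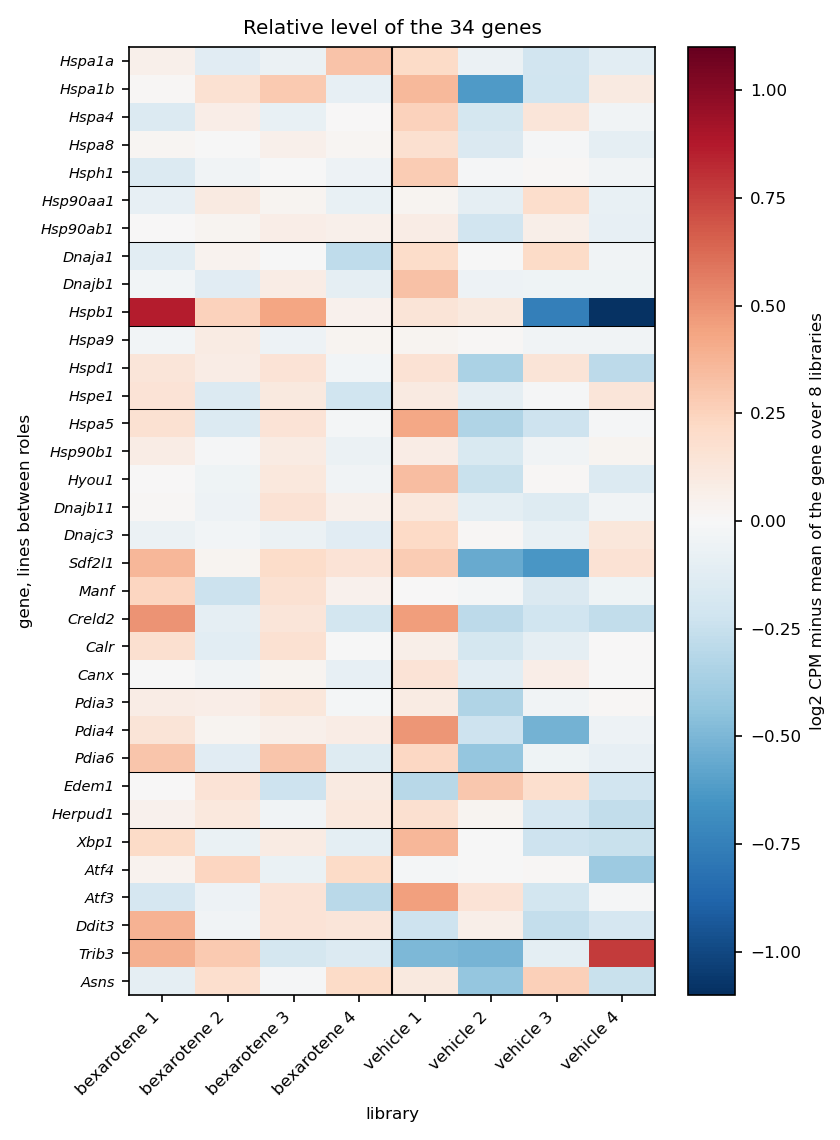
Log2 CPM minus the mean of the gene over the 8 libraries (colour) for the 34 genes (rows, grouped by role) in the bexarotene libraries (left of the line) and vehicle libraries (right). Vehicle 1 is the highest library for 15 genes and vehicle 2 the lowest for 16.

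The vehicle libraries differed among themselves across these genes. Vehicle 1 was the highest of the 8 libraries for 15 of the 34 genes (44.1%), where it was highest for 15.4% of all genes, and vehicle 2 was the lowest for 16 of the 34 (47.1%), where it was lowest for 17.1% of all genes. The SD of log2 CPM was smaller among the bexarotene libraries than among the vehicle libraries for 27 of the 34 genes (79.4%), beside 66.7% of all genes. Without vehicle 1 it was smaller for 20 of the 34 (58.8%), beside 61.4% of all genes. Each bexarotene library and 0 vehicle libraries held both Xist and Y-linked transcripts, the labels do not say whether animals were pooled alike in both groups, and the part of this in the spread was not tested. Of the 13 ER chaperones and isomerases, 5 were highest in vehicle 1, 4 in bexarotene 1 and 4 in bexarotene 3, and 8 were lowest in vehicle 2.

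The mean relative log2 level of the 10 ER chaperones and cochaperones was 0.15, -0.08, 0.11 and -0.03 in the bexarotene libraries, against 0.22, -0.20, -0.15 and -0.02 in the vehicle libraries. The 8 striatal markers had 1.84, -0.91, 1.34 and -0.69 in the bexarotene libraries, against 0.76, -1.50, -0.51 and -0.35 in the vehicle libraries. Both were thus highest in bexarotene 1, bexarotene 3 and vehicle 1, and lowest in vehicle 2. The same extremes were found for the ER disulfide isomerases, the mitochondrial chaperones and the 34 genes together. The 34 genes together had 0.10, 0.01, 0.07 and -0.02 in the bexarotene libraries, against 0.16, -0.15, -0.09 and -0.08 in the vehicle libraries. The other groups of the 34 genes did not share all of these extremes. Of the 8 striatal markers, 8 had a positive fold change between the groups (median 1.08), and 0 passed the test. The 10 immediate early genes, which mark recent neuronal activity, had -0.23, 0.40, 0.04 and 0.49 in the bexarotene libraries, against -0.75, 0.55, -0.99 and 0.48 in the vehicle libraries, so they were low in vehicle 1 and 3. The part of tissue composition or activity in the chaperone values was not tested.

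**Figure D5:**
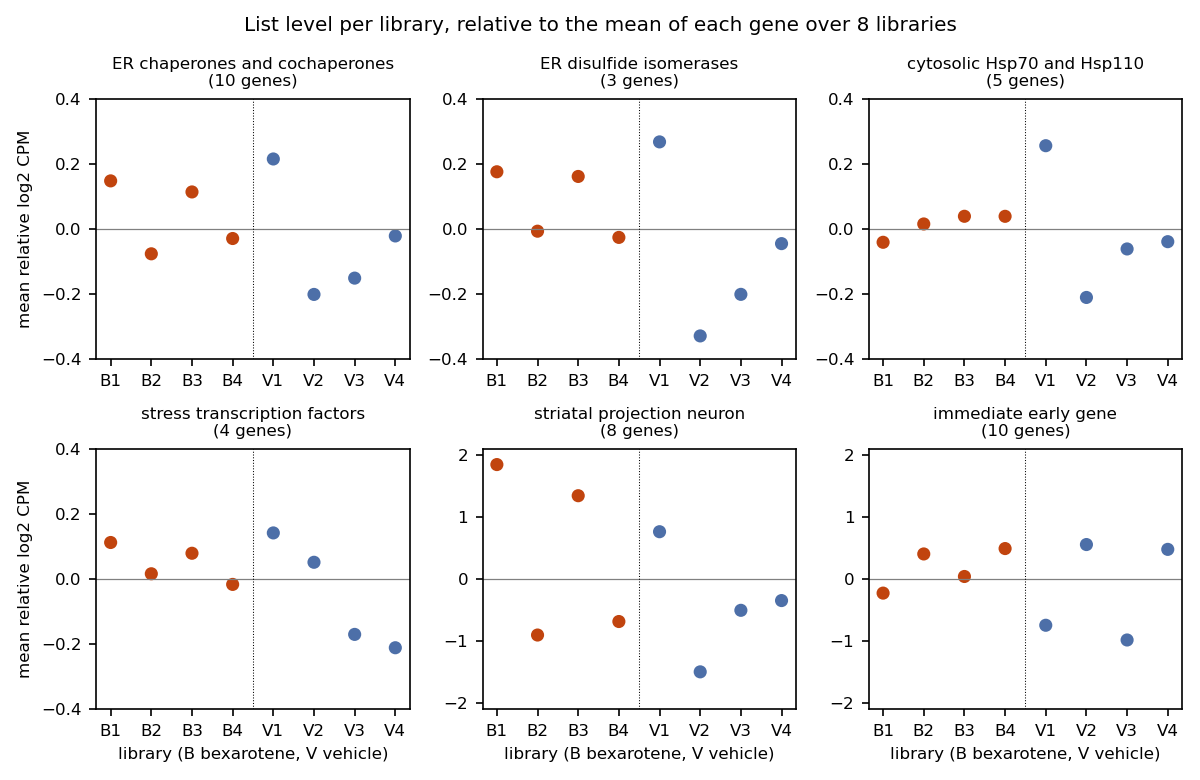
Mean relative log2 CPM (vertical axis; top row and lower left from -0.4 to 0.4, other panels from -2.1 to 2.1) of 4 groups of the 34 genes and of 2 marker lists in bexarotene libraries B1 to B4 (left) and vehicle libraries V1 to V4 (right). ER chaperones, ER disulfide isomerases and striatal markers are all highest in B1, B3 and V1 and lowest in V2.

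In wider lists of the same pathways, edgeR called 0 genes in each, and DESeq2 called 1 of the cytosolic heat shock genes and 0 in the other lists. Of 40 other cytosolic heat shock genes, 27 had a positive fold change (median 0.06), and in 4 (10%) the bexarotene values lay wholly above the vehicle values, as in 3.61% of all genes. They included Cdc37, the Hsp90 cochaperone for kinases, with 101.3, 93.3, 100.1 and 97.4 CPM in the bexarotene libraries, against 82.4, 84.5, 85.1 and 84.96 CPM in the vehicle libraries. The groups did not overlap, and the log2 fold change was 0.22 ± 0.07 (SE; edgeR unadjusted p = 0.00774, adjusted p = 0.445). Ubb, which encodes ubiquitin, had a log2 fold change of 0.26 (edgeR adjusted p = 0.477).

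Of 37 tested genes of the ER response outside the 34, 19 had a positive fold change (median 0.01). The smallest p-values were those of Ppib, an ER prolyl isomerase (log2 fold change 0.23, edgeR adjusted p = 0.499), Mbtps2, the protease that releases Atf6 (-0.34, adjusted p = 0.562), and Ero1lb, an ER oxidase (-0.22, adjusted p = 0.62). The sensors Ern1 (Ire1), Eif2ak3 (Perk) and Atf6 had log2 fold changes of -0.12, -0.09 and -0.12. Of 34 tested genes of the integrated stress response, 22 had a positive fold change (median 0.07), led by Eif2ak2, the double-stranded RNA sensing kinase PKR (0.55, edgeR adjusted p = 0.464), Shmt2, of mitochondrial one-carbon metabolism (0.30, adjusted p = 0.475), and Sars, seryl-tRNA synthetase (0.20, adjusted p = 0.532). In these 3 genes the groups did not overlap, and over the list 5 of 34 did not overlap (4 higher and 1 lower, 14.7%), beside 5.77% of all genes. Of 12 other genes of mitochondrial protein quality control, 9 had a positive fold change (median 0.07), led by Grpel1, the exchange factor of Hspa9 (0.27, edgeR adjusted p = 0.499), the protease Htra2 (0.26, adjusted p = 0.632) and the protease Lonp1 (0.14, adjusted p = 0.712).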

How the data were processed

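The authors deposited raw read counts per RefSeq transcript in 1 table of 28644 rows, as whole numbers with unequal column totals; per the file headers each of the 8 columns is 1 library. Per the submitters' processing notes the build was mm9 and edgeR was used; the aligner, counting program and strand setting: not given in the sources used here. Per the labels' protocols the kit was a stranded TruSeq mRNA kit. Columns of values left out numbered 0.

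Counts were tested with edgeR 4.0.16 in R 4.3.3 (TMM, filterByExpr with its minimum count of 10, robust quasi-likelihood F test, group as the only term), with Benjamini-Hochberg adjustment over 21285 rows. DESeq2 1.42.0 was an alternative. Log2 CPM used a prior count of 2; exact two-sided permutation tests were run per gene. The fit was tested on simulated data. Standard errors and 95% intervals come from the F statistic. Dnaja1, Hspa5, Dnajb11 and Canx had several rows; those of Canx were identical. Transcript lengths and overlaps came from GENCODE M21 (GRCm38), and promoters from RefSeq (GRCm38.p6); coordinates of other builds were not used.

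The titles number replicates 1 to 4 in both groups. Deviations of same-numbered libraries correlated at 0.427, 0.278, 0.144 and 0.163, all above 0.1, so the number was treated as a pairing; bexarotene 3 and vehicle 1 correlated at 0.439, so pairs cannot be told apart from the 2 library clusters. The clusters were the sides of the first principal component.

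The 34 genes and the lists were chosen with earlier results of these data known. Values per library are given for the 10 genes with the smallest p and 9 fixed genes (Hspa1a, Hspa1b, Hspa5, Hsp90aa1, Hspa8, Dnajb1, Atf4, Xbp1, Ddit3), and the 3 smallest p of each wider list are named, except 1 gene that is not reported here. Asns, Hspb1's marker lists, Pdia4, Hspa4, Mars and the 3 sensors were added after their values were seen.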

Additional observations from a re-analysis of the deposited data

Results flagged for a closer look

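In 4 of the 68 groups of 4 libraries formed by the 34 genes, 1 library lay far from the other 3 by Dixon's test, which flags about 1 in 20 groups by chance. Hsph1 had 244.1 CPM in vehicle 1, above the 196.5 to 203.1 CPM of the other vehicle libraries. Dnajb1 had 72.33 CPM in vehicle 1, above the other vehicle libraries at 55.47 to 56.06 CPM. For Creld2, vehicle 1 had 13.94 CPM and the other vehicle libraries had 8.303 to 8.712 CPM. Atf4 had 64.59 CPM in vehicle 4, below the 83.61 to 86.07 CPM of vehicle 1 to 3. No bexarotene library was set apart in this way.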

How the results depend on the processing

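Under each of the 17 alternatives to the fit reported, 0 of the 34 genes passed an adjusted p of 0.05, including the replicate block, RLE size factors, no filter on low counts, a correction for length and GC content, 1 row per symbol, summed rows, the library cluster as a second term, DESeq2 and each library left out in turn. Between 21 and 28 genes had a positive fold change, and the median was 0.03 to 0.14 with a library left out and 0.0845 with the replicate block. With all 8 libraries 0 genes did not overlap, and with 1 library left out 0 to 3 did (3 without vehicle 1, 2 each without bexarotene 2 or 3), beside 6.38% to 11.8% of all genes. With the length and GC correction, Canx, Hsp90aa1 and Xbp1 turned to 0.0857, 0.0565 and -0.0153, and with the replicate block added Canx, Hsp90aa1 and Hspa4 were 0.0847, 0.0584 and 0.0034. Without a turn of sign, the length and GC correction moved Hspe1 from -0.0529 to -0.2337 (edgeR unadjusted p = 0.0353, adjusted p = 0.821). It also moved Dnajc3 from -0.145 to -0.003, Sdf2l1 from 0.3253 to 0.165 and Hspb1 from 0.7496 to 0.5637. Edem1 and Hyou1, at 0.0005, turned to -0.0059 and -0.0062 with RLE, -0.002 and -0.0021 with 1 row per symbol, -0.0028 and -0.0035 with summed rows, and -0.006 and -0.0061 with DESeq2; Edem1 was -0.0033 with the cluster term. Leaving out a library moved Creld2 between -0.0028 and 0.37, Dnajb1 between -0.14 and 0.0082, Edem1 between -0.0915 and 0.11, Hsp90aa1 between -0.0592 and 0.0407, Hspa5 between -0.0429 and 0.22, Hspa9 between -0.0078 and 0.0393, Hspe1 between -0.11 and 0.0142, Hyou1 between -0.0689 and 0.13, Pdia4 between -0.0171 and 0.33, Trib3 between -0.0536 and 0.49, and Xbp1 between -0.0241 and 0.19. None of these signs was ever a call, and the cause of the turns was not tested. Depth limits the genes with few counts: Hspb1, Atf3 and Trib3 had 23 to 201 counts per library.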
